A study of Mus musculus with 4 samples.

Results

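The genes described here are 35 genes of glycolysis and of the transcriptional response to low oxygen, chosen by symbol from the 54532 genes of the deposited count table. They comprise 17 enzymes of the route from glucose to lactate, 4 enzymes that regulate flux through it, 4 genes of the HIF (hypoxia-inducible factor) pathway, and 10 hypoxia targets that are not glycolytic. All 35 symbols were found in 36 rows, since Aldoa names 2 rows.

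RNA was sequenced from MPC5, a conditionally immortalized mouse podocyte line that grows in the presence of IFN-γ and is differentiated by its withdrawal at a higher temperature. In the IL-12 treatment group, 2 libraries came from podocytes exposed to IL-12 for 6 h. In the control group, 2 libraries came from podocytes of the same line, labelled Control. These control podocytes received saline. Nothing in the labels or the methods says that the libraries of a group were separate cultures, so p-values measure the spread between these libraries, which may be technical.

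Total counts ranged from 18355379 to 20098012 per library, and 3 counts corresponded to 0.149 to 0.163 CPM (counts scaled to a common library total), a floor that covers counting error only. Of the podocyte markers, Synpo, Podxl, Cd2ap and Actn4 were detected in every library, whereas the defining markers Nphs1 and Tcf21 had 0 to 1 counts per library and Wt1 had 4 to 16. Of 4 T cell and 3 endothelial markers, 0 passed the filter on low counts. Of 4 macrophage markers, Csf1r fell (22.2 to 12.1 CPM, -45.8%, adjusted p = 3.41e-06) and Cd68 did not pass the test, while Adgre1 had 0 counts and Ptprc 1 to 12. Of 3 proximal tubule markers, Lrp2 fell (646 to 537 CPM, -16.8%) and Slc34a1 had 0 counts. Of 3 mesangial or stromal markers, Pdgfrb and Acta2 rose by 17.2% and 10.4%. Synpo itself changed by -36.6% (adjusted p = 3e-11). The part of these markers in the other results was not tested. As these are bulk samples, fewer cells of a type and less RNA per cell cannot be told apart. IL-12 was compared with Control by edgeR's quasi-likelihood test, with p-values adjusted over all 14095 genes that passed the filter (Benjamini-Hochberg). A gene is said to have risen or fallen when its adjusted p was below 0.05. Log2 fold changes are given ± standard error (SE). CPM values are scaled by TMM factors (a correction for library composition) and given as mean ± SD over 2 libraries. Over all genes tested, 52.8% of those that passed were higher with IL-12, against 40.5% with scaling by total counts only.

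Glycolysis splits glucose to pyruvate with a small gain of ATP, and lactate dehydrogenase turns pyruvate into lactate, which restores the cofactor that the pathway needs. When oxygen is low, the HIF alpha subunits escape hydroxylation by the EGLN enzymes, pair with ARNT and bind DNA at sites with the core letters ACGTG or GCGTG, which raises most glycolytic genes together with genes of other functions. Podocytes are known to draw on glycolysis for much of the ATP used in their foot processes.

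Among the hypoxia targets that are not glycolytic, 7 of the 8 genes tested fell with IL-12, and 0 rose. The changes were -49.8% for Ndrg1, -40.1% for Bnip3 and -26.6% for Vldlr. Of the 17 glycolytic enzymes, 6 fell, 3 rose and 8 did not pass. Across all genes tested, 30.5% passed the test, 16.1% higher and 14.4% lower. The median log2 fold change was -0.30 over the 8 targets and -0.07 over the 17 enzymes, against -0.0022 over all genes. No set test was made, and the difference between the groups of genes was not tested. With a 2-fold limit added, 0 of the 32 members and 1.61% of all genes passed by edgeR's test, a share too low for the count to tell the members from other genes. By the limma voom and DESeq2 Wald tests the count of members was 0 as well. Ndrg1 passed that limit with upper-quartile scaling and with scaling by total counts only (log2 fold changes of -1.01 and -1.04), and without the second control library or the first IL-12 library (-1.02 and -1.01).

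**Figure D1:**
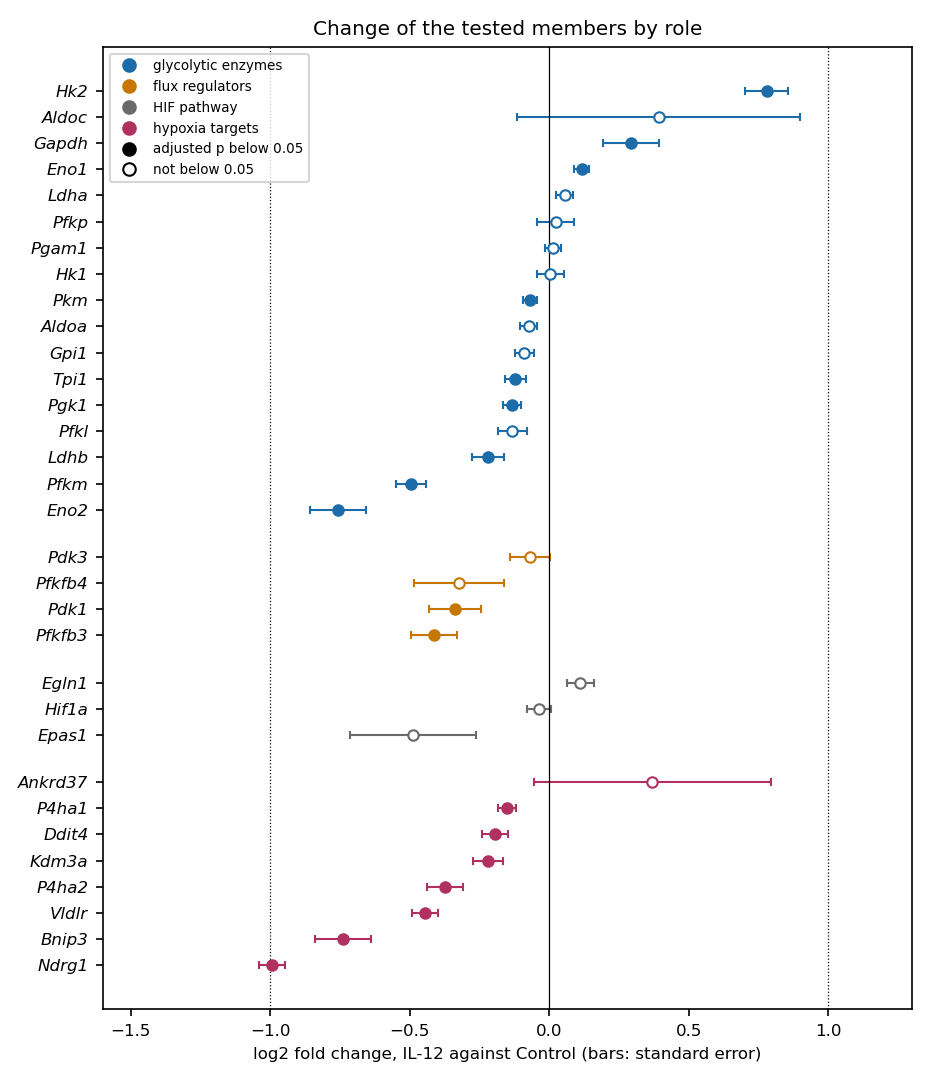
Log2 fold change of each of the 32 tested members (IL-12 against Control) with its standard error, ordered within 4 roles. Filled points had an adjusted p below 0.05 and dotted lines mark 2-fold. Of the hypoxia targets, 7 of 8 are filled and to the left of 0, while the 9 filled enzymes lie on both sides.

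Promoter sequences are shown for a pair of targets that fell and for the enzyme that rose most, because the core letters of HIF binding can be read in them. The windows hold the 250 bases before the RefSeq transcription start in GRCm38.p6, 5′ to 3′ on the strand of the gene. Bnip3 lies on the minus strand (chr7:138909507-138909756), P4ha2 on the plus strand (chr11:54100674-54100923) and Hk2 on the minus strand (chr6:82774455-82774704). Capitals mark ACGTG or GCGTG on either strand, and where matches overlap, as in a palindromic CACGTG, each is counted.
Bnip3: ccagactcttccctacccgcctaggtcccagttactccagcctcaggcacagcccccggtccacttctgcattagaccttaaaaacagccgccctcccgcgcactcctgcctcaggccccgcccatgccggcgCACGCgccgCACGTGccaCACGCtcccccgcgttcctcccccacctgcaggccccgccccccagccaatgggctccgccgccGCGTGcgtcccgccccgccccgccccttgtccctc
P4ha2: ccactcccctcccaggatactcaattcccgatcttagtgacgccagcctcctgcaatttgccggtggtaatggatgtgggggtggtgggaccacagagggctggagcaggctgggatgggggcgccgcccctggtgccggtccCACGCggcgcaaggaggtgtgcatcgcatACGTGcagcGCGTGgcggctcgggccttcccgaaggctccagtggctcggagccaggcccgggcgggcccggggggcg
Hk2: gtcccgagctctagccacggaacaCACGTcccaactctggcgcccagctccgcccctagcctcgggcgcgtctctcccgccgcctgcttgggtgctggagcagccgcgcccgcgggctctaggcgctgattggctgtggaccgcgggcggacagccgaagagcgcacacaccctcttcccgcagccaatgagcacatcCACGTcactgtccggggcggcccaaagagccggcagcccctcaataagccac

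The Bnip3 window held 5 matches, the P4ha2 window 3 and the Hk2 window 2. RefSeq promoters were matched for 33 of the 35 genes, all but Ndrg1 and Epas1. ACGTG on either strand was found in 42.9% of the 49 windows of these genes and in 16.6% of the 32851 windows of all genes. Either core was found in 75.5% and 38.6%. Counted per gene over any window, ACGTG was found in 18.5% of all 27025 genes and either core in 41.5%. Of the 14 matched genes that fell, 8 held ACGTG in at least 1 window. So did 7 of the 13 that did not pass and 1 of the 3 that rose. Either core was found in 11 of the 14 that fell, 12 of the 13 that did not pass and all 3 that rose. Unlike the pair shown, Vldlr, Eno2 and Tpi1 fell and had 0 matches to either core. A match is a run of letters and not a measured binding site, and no test was made.

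Ndrg1, whose product is a stress-responsive protein of trafficking and differentiation, showed the largest change of all 32 members tested. Ndrg1 (ENSMUSG00000005125) lies on chromosome 15 of GRCm38 from 66929318 to 66969640. Its level was 138 and 134 CPM in Control and 69.1 and 67.6 CPM under IL-12. The spread within a group was small beside the gap between groups. Ndrg1 changed by -0.995 ± 0.05 (SE) on the log2 scale (adjusted p = 1.88e-11).

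Bnip3 encodes a mitochondrial protein that promotes mitophagy. It lies on chromosome 7 from 138890836 to 138909519 (ENSMUSG00000078566). The control libraries had 23.5 and 20.9 CPM and the IL-12 libraries 13.8 and 12.8 CPM, again without overlap. On the log2 scale it changed by -0.74 ± 0.10 (SE) (adjusted p = 1.56e-05). Bnip3l, a related mitophagy receptor outside the 35 genes, changed by -10.1% (adjusted p = 0.00955).

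Vldlr, a lipoprotein receptor, had 189 and 175 CPM in Control and 130 and 138 CPM under IL-12. On the log2 scale Vldlr changed by -0.45 ± 0.05 (SE) (adjusted p = 4.85e-07). P4ha1 and P4ha2 encode the catalytic subunits of collagen prolyl 4-hydroxylase, which is needed for stable collagen helices. P4ha2 had 49.8 and 52.0 CPM against 40.7 and 37.8 CPM with IL-12, a change of -22.9% (adjusted p = 0.000156). P4ha1 was the more abundant of the pair and fell less, from 354 and 363 CPM to 326 and 320 CPM, a change of -9.90% (adjusted p = 0.00133). In counts per kilobase of gene length, P4ha1 made up 91.4% ± 0.100 (SD, n = 2) of the pair in Control and 92.6% ± 0.260 (SD, n = 2) with IL-12.

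Ddit4, an inhibitor of mTORC1 that responds to low oxygen and to other stress, and Kdm3a, a histone H3K9 demethylase, fell by small amounts. Ddit4 had 111 and 116 CPM in Control and 99.2 and 98.8 CPM under IL-12 (change of -12.6%, adjusted p = 0.00321). Kdm3a had 71.8 and 68.5 CPM and 59.6 and 60.9 CPM (change of -14.1%, adjusted p = 0.00355). Without the first IL-12 library the adjusted p of Kdm3a was 0.0519. For all 7 targets both IL-12 libraries were below both control libraries, which was the case for 31.2% of all genes tested.

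**Figure D2:**
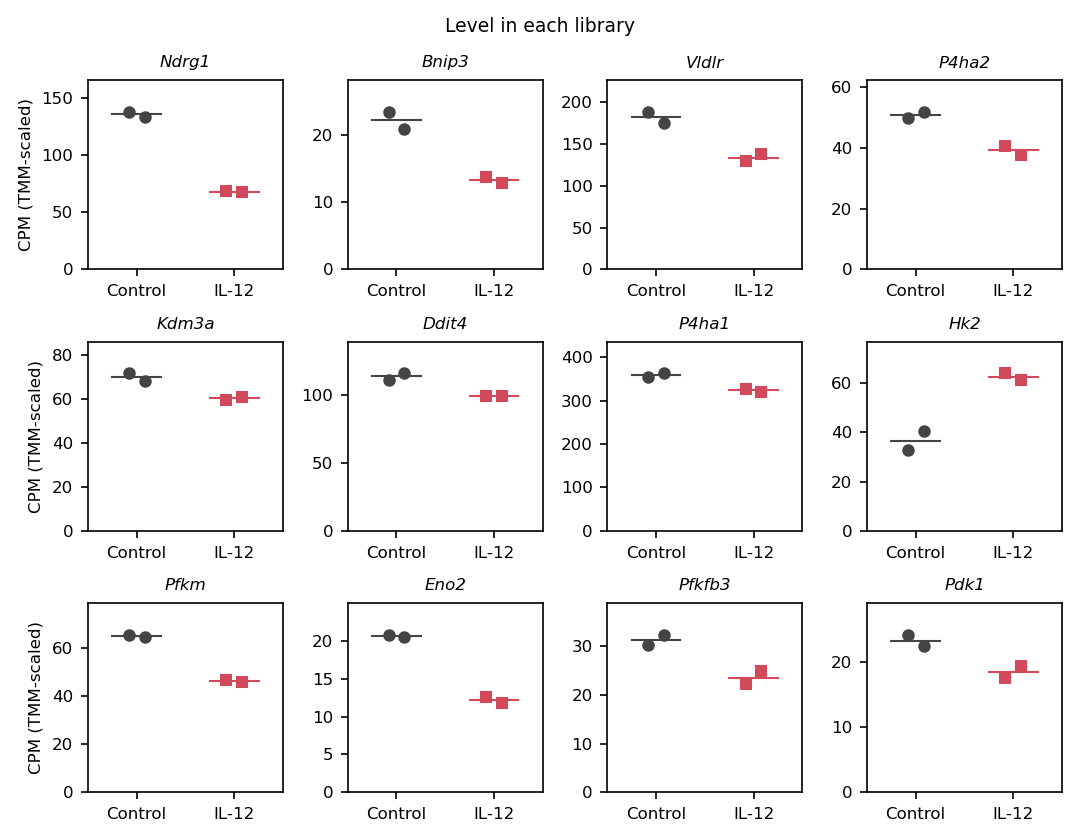
TMM-scaled CPM of 12 members in each library (circles for Control, squares for IL-12, lines for group means; each axis starts at 0). Of these, Hk2 is the only gene with both IL-12 points above both control points, and in the other 11 both IL-12 points lie below.

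The other 3 targets had few counts. Ankrd37, an ankyrin repeat protein, was counted 16 and 14 times in Control and 26 and 13 times with IL-12, so the groups overlapped (log2 fold change 0.37 ± 0.42 (SE), adjusted p = 0.573). The Ankrd37 locus also overlaps Ufsp2 on the opposite strand, which had 2267 counts against 69 over the 4 libraries, and strand use in the counting is not stated. Adm, the vasodilator peptide adrenomedullin, had 0, 0, 1 and 2 counts, and Car9, a membrane carbonic anhydrase strongly induced by HIF in many cell types, had 0, 1, 0 and 0. Neither reached the floor of 3 counts in a library, so a difference was not detectable at this depth.

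Of the 4 members of the HIF pathway, 3 were tested and 0 passed by edgeR's test, against 30.5% of all genes tested. Hif1a was the dominant HIF alpha subunit, with 136 and 132 CPM in Control and 129 and 132 CPM under IL-12. The change in Hif1a was -0.04 ± 0.04 (SE) on the log2 scale (adjusted p = 0.568). Epas1, which encodes HIF-2 alpha, was scarce, with 3.22 and 3.97 CPM and then 2.63 and 2.49 CPM (log2 fold change -0.49 ± 0.23 (SE), unadjusted p = 0.0434, adjusted p = 0.114). Per kilobase of gene length, the control level was 22.7 CPM for Hif1a and 0.678 CPM for Epas1. Egln1, which encodes the main oxygen-sensing prolyl hydroxylase PHD2, changed by 0.11 ± 0.05 (SE) on the log2 scale (unadjusted p = 0.034, adjusted p = 0.0944), with both IL-12 libraries (104 and 104 CPM) above both control libraries (93.0 and 99.4 CPM). Egln3, a hydroxylase that is itself a HIF target in many cells, had 0 counts in every library.

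Among the glycolytic enzymes, hexokinase, which commits glucose to the cell by phosphorylation, showed the clearest rise. Hk2 (ENSMUSG00000000628, chromosome 6 from 82725025 to 82774454) is the inducible form. It had 32.7 and 40.4 CPM in Control and 64.1 and 61.3 CPM under IL-12. The control libraries differed by more than those with IL-12, but the groups did not overlap. Hk2 rose by 0.78 ± 0.08 (SE) on the log2 scale (adjusted p = 2.49e-07). Hk1, the constitutive form, had 80.7, 84.2, 82.5 and 82.7 CPM in the same order of libraries (adjusted p = 0.973). In counts per kilobase, the Hk2 share of the pair was 36.7% and 40.7% in Control and 52.6% and 51.4% under IL-12.

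Phosphofructokinase catalyses the main regulated step of the pathway and has 3 isozymes. Pfkm, the muscle type, fell from 65.4 and 64.6 CPM to 46.5 and 45.7 CPM (log2 fold change -0.50 ± 0.05 (SE), adjusted p = 1.23e-06). Pfkl, the liver type, had a log2 fold change of -0.13 (adjusted p = 0.0574), and Pfkp, the platelet type, one of 0.02 (adjusted p = 0.837). Pfkm made up 52.7% ± 1.42 (SD, n = 2) of the 3 in counts per kilobase in Control and 45.9% ± 0.234 (SD, n = 2) with IL-12, so that Pfkl, at 44.4% ± 0.0178 (SD, n = 2), came close to it. The Pfkm locus (chromosome 15 from 98092589 to 98132451) overlaps Senp1 on the opposite strand, which had 5401 counts against 4204 over the 4 libraries, and Pfkp likewise overlaps Pitrm1 (8151 counts against 2929).

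Enolase makes phosphoenolpyruvate, and its isozymes moved in opposite directions. Eno2, known as the neuronal enolase, fell from 20.8 and 20.5 CPM to 12.5 and 11.8 CPM. It changed by -0.76 ± 0.10 (SE) on the log2 scale (adjusted p = 9.84e-06), the largest fall among the enzymes. Eno1, the widely expressed form, was far more abundant and rose by 8.41%, with 1058 ± 4.74 CPM (SD, n = 2) in Control and 1147 ± 30.4 CPM (SD, n = 2) under IL-12 (adjusted p = 0.00228). The share of Eno2 in the pair was 2.19% and 2.17% in the control libraries and 1.21% and 1.19% with IL-12, per kilobase. Counts on Eno1 were 83456 over the 4 libraries, and its near-identical copies had 3.44% of the sum. With those added, the log2 fold change stayed at 0.12.

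**Figure D3:**
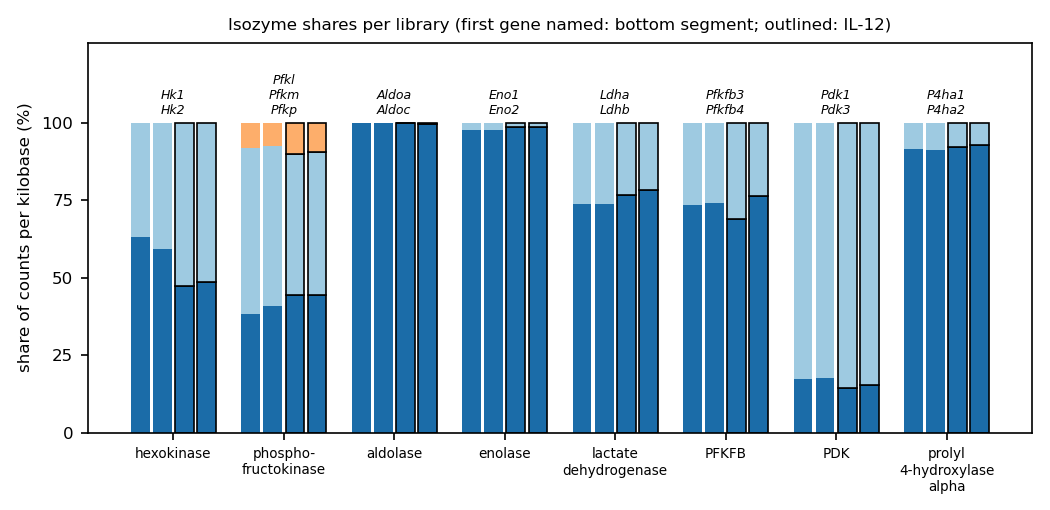
Share of each isozyme in the counts per kilobase of its step, for the 2 control libraries and then the 2 IL-12 libraries (outlined). The first gene named above each set is the bottom segment. The Hk2 segment widens from 36.7% and 40.7% to 52.6% and 51.4%.

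Lactate dehydrogenase interconverts pyruvate and lactate, with Ldha the form that favours lactate production. Ldhb, the heart type, fell from 91.5 and 94.6 CPM to 85.5 and 74.3 CPM (log2 fold change -0.22 ± 0.06 (SE), adjusted p = 0.00727). The IL-12 libraries were unequal, and without the second the adjusted p was 0.142. Ldha had 550 and 564 CPM in Control and 591 and 566 CPM under IL-12 (adjusted p = 0.189). In counts per kilobase, Ldha took 73.9% ± 0.110 (SD, n = 2) of the pair in Control and 77.5% ± 1.19 (SD, n = 2) with IL-12.

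Small falls were found for Pgk1, Tpi1 and Pkm. Pgk1, the phosphoglycerate kinase of the first ATP-yielding step, had 412 and 402 CPM in Control and 378 and 364 CPM under IL-12 (change of -8.77%, adjusted p = 0.00376). Tpi1, triosephosphate isomerase, had 326 and 349 CPM and then 318 and 302 CPM (change of -8.12%, adjusted p = 0.0198). Pkm, pyruvate kinase, was the most abundant member in CPM, with 1336 ± 8.49 CPM (SD, n = 2) in Control and 1272 ± 21.6 CPM (SD, n = 2) with IL-12, a change of -4.76% (adjusted p = 0.0397). Of these, Tpi1 lost its call without the second control library (adjusted p = 0.270) or the second IL-12 library (0.214), Pgk1 without the latter (0.0535), and Pkm in 3 of the 4 fits that left out a library and with the replicate number as a block (0.0912). Pkm also lost its call by the DESeq2 Wald test (adjusted p = 0.0781). Aldoa, aldolase A, had 483, 489, 469 and 454 CPM (adjusted p = 0.0717 by edgeR's test). Its other row, at 0.719 to 1.47 CPM, did not differ by edgeR's test either (adjusted p = 0.878). Gpi1, glucose-6-phosphate isomerase, had a log2 fold change of -0.09 (adjusted p = 0.0633), and Pgam1, phosphoglycerate mutase, one of 0.01 (adjusted p = 0.786). Aldoc, the brain-type aldolase, was the least abundant enzyme, with 9 to 15 counts per library (adjusted p = 0.618). Gpi1, Pfkl and Aldoa passed the test under upper-quartile scaling, under total-count scaling and among protein-coding genes alone, with fold changes in the same direction.

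Gapdh (ENSMUSG00000057666, chromosome 6 from 125161715 to 125166467), the dehydrogenase that links the energy-spending and energy-yielding steps and a common reference transcript, was counted only 360 and 346 times in Control and 410 and 455 times with IL-12. A search of GENCODE transcripts for stretches of at least 150 bases with at least 95% identity to its coding sequence found 80 other genes, 64 of them with counts. They held 90.1% of the counts on Gapdh and these copies together. Gm13394, a processed pseudogene on chromosome 2 (28933610 to 28934609), alone had 3192, 3176, 3500 and 2979 counts in the 4 libraries. It differs from the coding sequence at 1 of 999 compared bases, the substitution A424C, counted from the start codon of the longest annotated coding sequence. The stretch from base 394 to 454 is shown with that base in capitals, because reads of the compared coding bases that miss it match both genes equally.
Gapdh: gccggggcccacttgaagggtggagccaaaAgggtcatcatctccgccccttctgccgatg
Gm13394: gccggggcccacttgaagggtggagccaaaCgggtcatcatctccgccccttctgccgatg

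By its own row, Gapdh rose by 22.6% (adjusted p = 0.0322). With the counts of its copies added, an alternative chosen after seeing the data, the level was 207 ± 0.758 CPM (SD, n = 2) in Control and 212 ± 6.84 CPM (SD, n = 2) with IL-12, the log2 fold change was 0.04 ± 0.04 (SE) and the call was lost (adjusted p = 0.517). It was also lost without the second IL-12 library (adjusted p = 0.359), without the second control library (0.0765), and by the DESeq2 Wald test (0.143). Its locus also overlaps Iffo1 on the opposite strand, which had 3362 counts against 1571. Its rise is therefore uncertain. For the other enzymes, copies held at most 5.37% of the sum (Pkm). Of the 5606 counts on copies of Pkm, 4849 were on AC160637.1, which overlaps the Pkm locus on the same strand. Copies that overlap the locus of their member were not added. Adding the others changed no call among these enzymes.

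**Figure D4:**
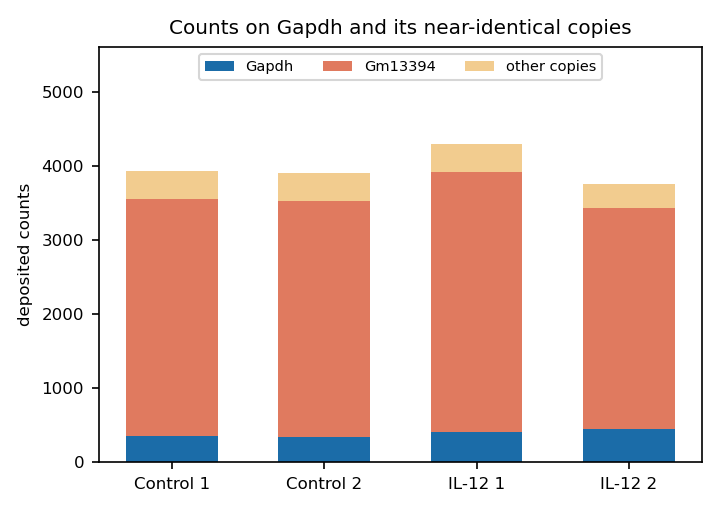
Deposited counts on Gapdh, on the processed pseudogene Gm13394 and on the other near-identical copies, stacked for each library. Gapdh itself has 346 to 455 counts per library, and Gm13394 has 2979 to 3500.

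The enzymes that regulate flux were lower or did not pass. Pfkfb3 and Pfkfb4 make fructose 2,6-bisphosphate, the strongest activator of phosphofructokinase. Pfkfb3 fell from 30.3 and 32.4 CPM to 22.2 and 24.9 CPM (log2 fold change -0.41 ± 0.08 (SE), adjusted p = 0.000689). Pfkfb4 was less abundant, with 7.07 and 7.31 CPM and then 6.47 and 4.97 CPM (log2 fold change -0.32 ± 0.16 (SE), adjusted p = 0.145). Pdk1 and Pdk3 are kinases that switch off pyruvate dehydrogenase and so keep pyruvate out of the mitochondrial cycle. Pdk1, a HIF target, fell from 24.1 and 22.3 CPM to 17.5 and 19.3 CPM (change of -20.9%, adjusted p = 0.00914), a call that was lost without the first control library (0.0760), without the first IL-12 library (0.128) and by the DESeq2 Wald test (0.0656). Pdk3 had 36.1 ± 2.52 CPM (SD, n = 2) in Control and 34.4 ± 0.829 CPM (SD, n = 2) with IL-12 (adjusted p = 0.512).

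**Figure D5:**
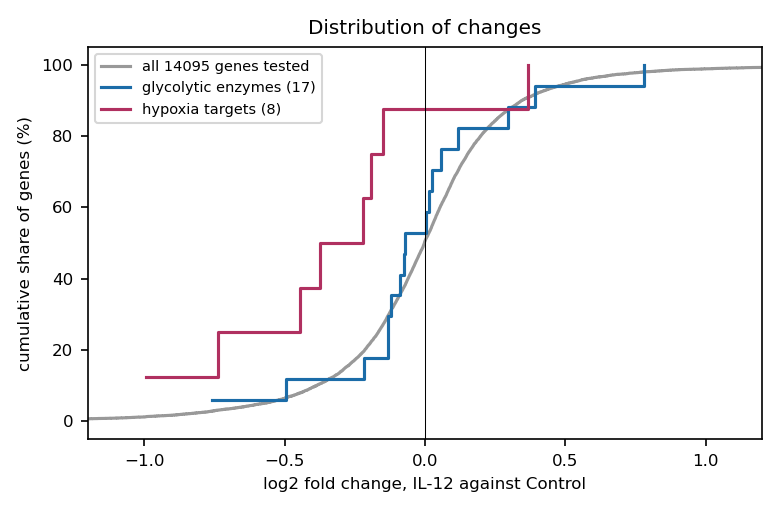
Cumulative share of genes by log2 fold change for the 14095 genes tested, the 17 glycolytic enzymes and the 8 tested hypoxia targets (changes beyond 1.2 in either direction lie outside the axis). Of the 8 steps of the target curve, 7 lie below 0 and the last is at 0.37, while the enzymes have steps on both sides of 0.

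Other genes of the pathway, were taken from a list that leaves out the 35. Of 31 such genes, 24 were tested, 4 rose, 5 fell and 15 did not pass, with a median log2 fold change of 0.02. Over all genes 16.1% rose and 14.4% fell, so these counts are near the background. Those that rose were Slc2a1, the main basal glucose transporter (29.0%, adjusted p = 1.81e-05), Slc16a1, a lactate and pyruvate transporter (26.1%, adjusted p = 0.000119), Bpgm, bisphosphoglycerate mutase (30.7%, adjusted p = 0.00276), and Tigar, a phosphatase that lowers fructose 2,6-bisphosphate (26.6%, adjusted p = 0.0173). Those that fell were Pdk2 (-40.0%, adjusted p = 3.28e-05), Pfkfb2 (-27.9%), the pyruvate dehydrogenase phosphatase Pdp1 (-23.3%), the mitochondrial pyruvate carrier subunit Mpc2 (-13.8%) and the pyruvate dehydrogenase subunit Pdhb (-12.5%).

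A list of 36 further symbols of the hypoxia response had 33 genes tested, of which 5 rose, 9 fell and 19 did not pass, with a median log2 fold change of -0.08. The count that rose is near the 16.1% of all genes, and 14.4% of all genes fell. Ero1a and Ero1l on it name the same gene. Bhlhe40, a transcriptional repressor, was the only gene of either list past 2-fold. Its level was 43.0 ± 0.222 CPM (SD, n = 2) in Control and 90.2 ± 5.62 CPM (SD, n = 2) under IL-12, or 1.07 ± 0.06 (SE) on the log2 scale (adjusted p = 9.04e-11). Tfrc, the transferrin receptor, rose by 49.0%, and the collagen crosslinking genes Lox and Plod2 rose by 52.3% and 11.9%. The changes with the largest size among the 9 that fell were -40.4% for Rora, -33.8% for Zfp395, -33.2% for Ccng2, -31.5% for Narf and -28.3% for Mxi1. Arnt, the partner of both HIF alpha subunits, changed by -9.51% (adjusted p = 0.0203), and Hif1an, the asparagine hydroxylase that restrains them, by -9.56% (adjusted p = 0.0306). Vegfa, a classical HIF target, had 86.8 ± 1.54 CPM (SD, n = 2) in Control and 87.6 ± 3.93 CPM (SD, n = 2) with IL-12 (adjusted p = 0.879).

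Across the 35 genes, both IL-12 libraries lay above both control libraries in 6 and below in 20 of the 32 tested, against 31.7% and 31.2% of all genes. As shares of the raw library totals, without TMM factors, their summed counts were 0.673% and 0.673% in the control libraries. In the IL-12 libraries the shares were 0.634% and 0.620%.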

How the data were processed

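RNA-sequencing of MPC5 podocytes gave 2 Control and 2 IL-12 libraries, grouped by their labels. The deposited table holds whole-number counts for each gene, unnormalized by the authors, beside deposited FPKM values, which equal the counts per kilobase and library total times 1 factor per library. The submitters' processing notes name HISAT2, StringTie and the build mm9, without roles. The deposited coordinates equal those of GENCODE M21 (GRCm38) for 98.3% of 54409 shared genes and for 34 of the 36 member rows (not Epas1 and Pgam1), so coordinates are given as deposited, in GRCm38. How multi-mapping reads and strand were treated is not given in the sources used here.

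Counts were filtered with filterByExpr (minimum of 10 counts, 15 in total), scaled by TMM and tested with edgeR 4.0.16 (glmQLFit, no block) in R 4.3.3. The SE of a log2 fold change is its size over the root of the F statistic. Alternatives used DESeq2 1.42.0 and limma 3.58.1. The tests were checked on simulated counts. Gene length is the deposited length of the whole gene model, so levels per kilobase are approximate. Copies were searched with blastn.

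For Aldoa the row with more counts stands for the gene in group counts. The members and lists were chosen with earlier results of these data known. Named genes are all members, with values per library for those that passed, both HIF alpha subunits and the most and least abundant, and genes of the other lists past 2-fold. Slc2a1, Slc16a1, Bpgm, Tigar, Pdk2, Pfkfb2, Pdp1, Mpc2, Pdhb, Tfrc, Lox, Plod2, Rora, Zfp395, Narf, Ccng2, Mxi1, Bnip3l, Arnt, Hif1an and Vegfa were named after their values were seen. Some marker genes are not reported here. An exact permutation test of 2 against 2 libraries cannot give a two-sided p below 0.333.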

Additional observations from a re-analysis of the deposited data

How the results depend on the processing

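Of the 18 members that passed, 11 kept their direction and an adjusted p below 0.05 under all alternatives run other than the 2-fold limit (Ndrg1, Bnip3, Vldlr, P4ha1, P4ha2, Ddit4, Hk2, Pfkm, Eno1, Eno2 and Pfkfb3), and none of the 18 changed sign. Among members that did not pass, Hk1, Pfkp, Pgam1, Pdk3 and Ankrd37 (-0.14 without the first IL-12 library) changed sign under some alternatives. The 2-fold limit left 0 of the 18 members, 0 enzymes in either direction, 0 targets, 0 flux regulators and HIF pathway genes, 0 other glycolysis genes and 1 other hypoxia gene. Without a filter on low counts, which adds genes to the adjustment, 5 enzymes passed, 3 of them lower (Tpi1, Gapdh, Pkm and Ldhb lost their calls). The DESeq2 Wald test called 1 flux regulator. With scaling by total counts only, the median log2 fold change was -0.11 for the enzymes and -0.34 for the targets. Leaving out each library in turn gave 13 to 17 members, 4 to 9 enzymes (2 to 3 higher and 2 to 6 lower), 6 to 7 targets, 1 to 2 flux regulators, 5 to 9 other glycolysis genes and 11 to 13 other hypoxia genes, with medians of -0.08 to -0.05 for the enzymes and -0.31 to -0.28 for the targets. The lowest counts of members and of enzymes came without the second IL-12 library. Where such a fit left 1 library in a group, it was assumed to vary like the other group. Isozyme shares from FPKM are the same by construction, because the 1 factor per library cancels in a share, so they are no separate check.

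The replicate numbers are shared by the groups, but nothing ties same-numbered libraries together, and their deviations from the group means had a correlation of -0.027. With the replicate number as a block, 17 members passed, 8 of them enzymes (3 higher, 5 lower) and 7 targets, and the call of Pkm was the only 1 lost among the members. The medians with the block were -0.07 for the enzymes and -0.30 for the targets, and 4341 genes passed in all against 4297. Over all genes, 2705 passed by the DESeq2 Wald test and 2796 without the first IL-12 library. With 2 libraries per group, genes near the floor, such as Adm, Car9 and Egln3, could not be tested.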
